A study of Mus musculus with 56 samples.

Results

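Skeletal muscle fibres turn an action potential into contraction through a chain of membrane proteins, and 10 genes of that chain were followed in mouse gastrocnemius: Cacna1s, Cacnb1, Stac3, Jph1, Jph2, Ryr1, Trdn, Jsrp1, Casq1 and Sln. They were chosen by name for their known place in this chain, with earlier results of these data known. All 10 were found among the 15539 genes of the count table, 14321 of which had enough reads to be tested. Gastrocnemius from 56 mice of strain C57Bl/6 was sequenced, 7 mice in each of 8 groups that cross sex, genotype and wheel. The mice were 5 months of age on a chow diet (5015), and their cages held either a running wheel or a locked wheel between 10 and 20 weeks of age. Groups are named by letters as follows: M for male, F for female, C for control, H for the label HuR skeletal muscle knockout, and a final E for a running wheel, so that MC mice are control males on a locked wheel and FHE mice are females labelled HuR knockout with a running wheel. Per the study's methods, labelled mice carried a floxed Elavl1 gene, which encodes the RNA-binding protein HuR, together with Cre recombinase driven by the Mlc1f promoter of a fast myosin light chain, and controls were floxed littermates. Whole mixed muscle was powdered, so that cells other than fibres also gave RNA, and in such bulk samples fewer cells of a type and less RNA per cell cannot be told apart.

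In a resting fibre calcium is held in the sarcoplasmic reticulum. An action potential entering the transverse tubule moves the voltage sensor CaV1.1, which touches the release channel RyR1 across a narrow junction and opens it, and calcium flows out to the myofilaments until the pump SERCA returns it. The genes studied here encode the sensor and its partners (Cacna1s, the pore-forming subunit of CaV1.1; Cacnb1, its β1 subunit; Stac3, an adaptor needed for coupling), the membrane tethers of the junction (Jph1 and Jph2, the junctophilins), the release channel (Ryr1) with its anchoring proteins (Trdn, triadin; Jsrp1, also called JP-45), the calcium store protein of the reticulum lumen (Casq1, calsequestrin 1) and a small peptide that slows SERCA (Sln, sarcolipin).

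Promoter sequence is shown first for Ryr1, Cacna1s and Casq1, which were called for the sex-dependent wheel response described below and had a promoter window. Jph1 and Jsrp1 were also called for that response but had no window. RefSeq windows on GRCm38.p6, 250 bases before to 50 bases after a start site, were found for 5 of the 10 members (Ryr1, Cacna1s, Cacnb1, Jph2 and Casq1). Capitals mark E-boxes, the letters CANNTG, which myogenic factors such as MyoD can bind, and 72.3% of all 32851 windows hold at least 1. Ryr1 lies on the minus strand of chromosome 7, and its window chr7:29125102-29125401 holds no E-box but 2 GC boxes (GGGCGG on either strand, in 35.7% of windows). The Cacna1s window, chr1:136052561-136052860 on the plus strand, holds 2 E-boxes, 1 GC box and 1 MCAT element (CATTCCT on either strand, in 5.36% of windows). The Casq1 window, chr1:172219846-172220145 on the minus strand, holds 2 E-boxes and 1 GC box. These matches describe letters only.
Ryr1 promoter: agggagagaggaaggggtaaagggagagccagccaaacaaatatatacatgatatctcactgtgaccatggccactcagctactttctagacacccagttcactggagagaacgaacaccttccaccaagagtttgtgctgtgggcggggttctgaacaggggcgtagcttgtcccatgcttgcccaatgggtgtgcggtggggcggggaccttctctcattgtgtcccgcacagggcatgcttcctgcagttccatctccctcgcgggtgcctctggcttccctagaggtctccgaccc
Cacna1s promoter: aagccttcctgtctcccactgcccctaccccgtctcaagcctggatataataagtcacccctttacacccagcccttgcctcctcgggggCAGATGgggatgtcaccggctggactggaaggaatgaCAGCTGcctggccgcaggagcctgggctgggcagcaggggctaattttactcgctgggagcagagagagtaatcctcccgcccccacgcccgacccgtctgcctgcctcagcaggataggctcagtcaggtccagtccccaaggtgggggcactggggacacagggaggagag
Casq1 promoter: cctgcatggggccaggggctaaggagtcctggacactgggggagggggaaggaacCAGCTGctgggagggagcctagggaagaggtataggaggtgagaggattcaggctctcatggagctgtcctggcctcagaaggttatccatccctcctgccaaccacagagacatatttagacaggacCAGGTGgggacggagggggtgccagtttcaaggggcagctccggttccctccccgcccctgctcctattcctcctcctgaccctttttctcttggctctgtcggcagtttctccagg

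Sln is shown as its coding sequence because it is the smallest member. It is a gene of chromosome 9 (53850164 to 53854560, plus strand, GRCm38) with 2 exons in its 1 coding transcript in GENCODE M21, and the coding part, 96 bases with the start and stop codons in capitals, gives 31 codons before the stop.
Sln coding sequence: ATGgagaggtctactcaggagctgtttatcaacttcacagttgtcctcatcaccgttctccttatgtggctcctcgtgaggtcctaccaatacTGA
At the other end of the scale stands Ryr1 (chromosome 7, 29003344 to 29125179, minus strand), whose transcript with the longest coding part has 109 exons and a coding part of 15186 bases. The other members have coding parts of 999 bases (Jsrp1) to 5559 bases (Cacna1s). Of the sensor complex, Cacna1s (chromosome 1, 136052750 to 136119822, plus strand), Cacnb1 (chromosome 11, 98001508 to 98023034, minus strand) and Stac3 (chromosome 10, 127501686 to 127508823, plus strand) lie apart from each other. The junctophilin genes are Jph1 (chromosome 1, 16964560 to 17097889, minus strand) and Jph2 (chromosome 2, 163336242 to 163397993, minus strand). The reticulum proteins come from Trdn (chromosome 10, 33080554 to 33476709, plus strand), Jsrp1 (chromosome 10, 80808496 to 80813498, minus strand) and Casq1 (chromosome 1, 172209894 to 172219868, minus strand). In GENCODE M21, exons of Ryr1, Cacna1s, Cacnb1, Jph1 and Casq1 overlap exons of predicted genes on the opposite strand, by 864 bases for Ryr1 and Gm26604 and 1309 bases for Cacna1s and Gm37759, and without a stated strand setting reads there cannot be told apart.

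Levels are given as CPM, read counts scaled to a common library size after TMM normalization. The total counts of a mouse ran from 6639782 to 21633091, and all members but Sln were well covered. The lowest count of any mouse was 5016 for Ryr1 and 326 for Cacnb1, but 17 for Sln. Over the 56 mice the median level of Trdn was 2777 CPM, of Ryr1 1041 CPM, of Casq1 882.9 CPM and of Jph1 357.1 CPM. Cacna1s had a median of 227.2 CPM, Jsrp1 216.9 CPM, Jph2 132.9 CPM, Stac3 95.44 CPM, Cacnb1 57.69 CPM and Sln 4.204 CPM. Per kilobase of exonic length the order of the medians was different, with Casq1 highest at 452.6 CPM per kb, followed by Trdn at 296.9, Jsrp1 at 162.7, Jph1 at 71.45, Ryr1 at 47.68, Stac3 at 37.53, Cacna1s at 34.68, Jph2 at 31.23, Cacnb1 at 12.74 and Sln at 3.19 CPM per kb. This order holds only if reads covered whole transcripts; the study's methods describe total RNA libraries, whereas the sample labels name a 3′ end kit. Within groups 9 of the members varied less than the median gene. Their standard deviation of log2 CPM around the group means ran from 0.115 for Jsrp1 to 0.234 for Ryr1, apart from 0.538 for Sln, against a median of 0.31 over all genes tested.

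**Figure D1:**
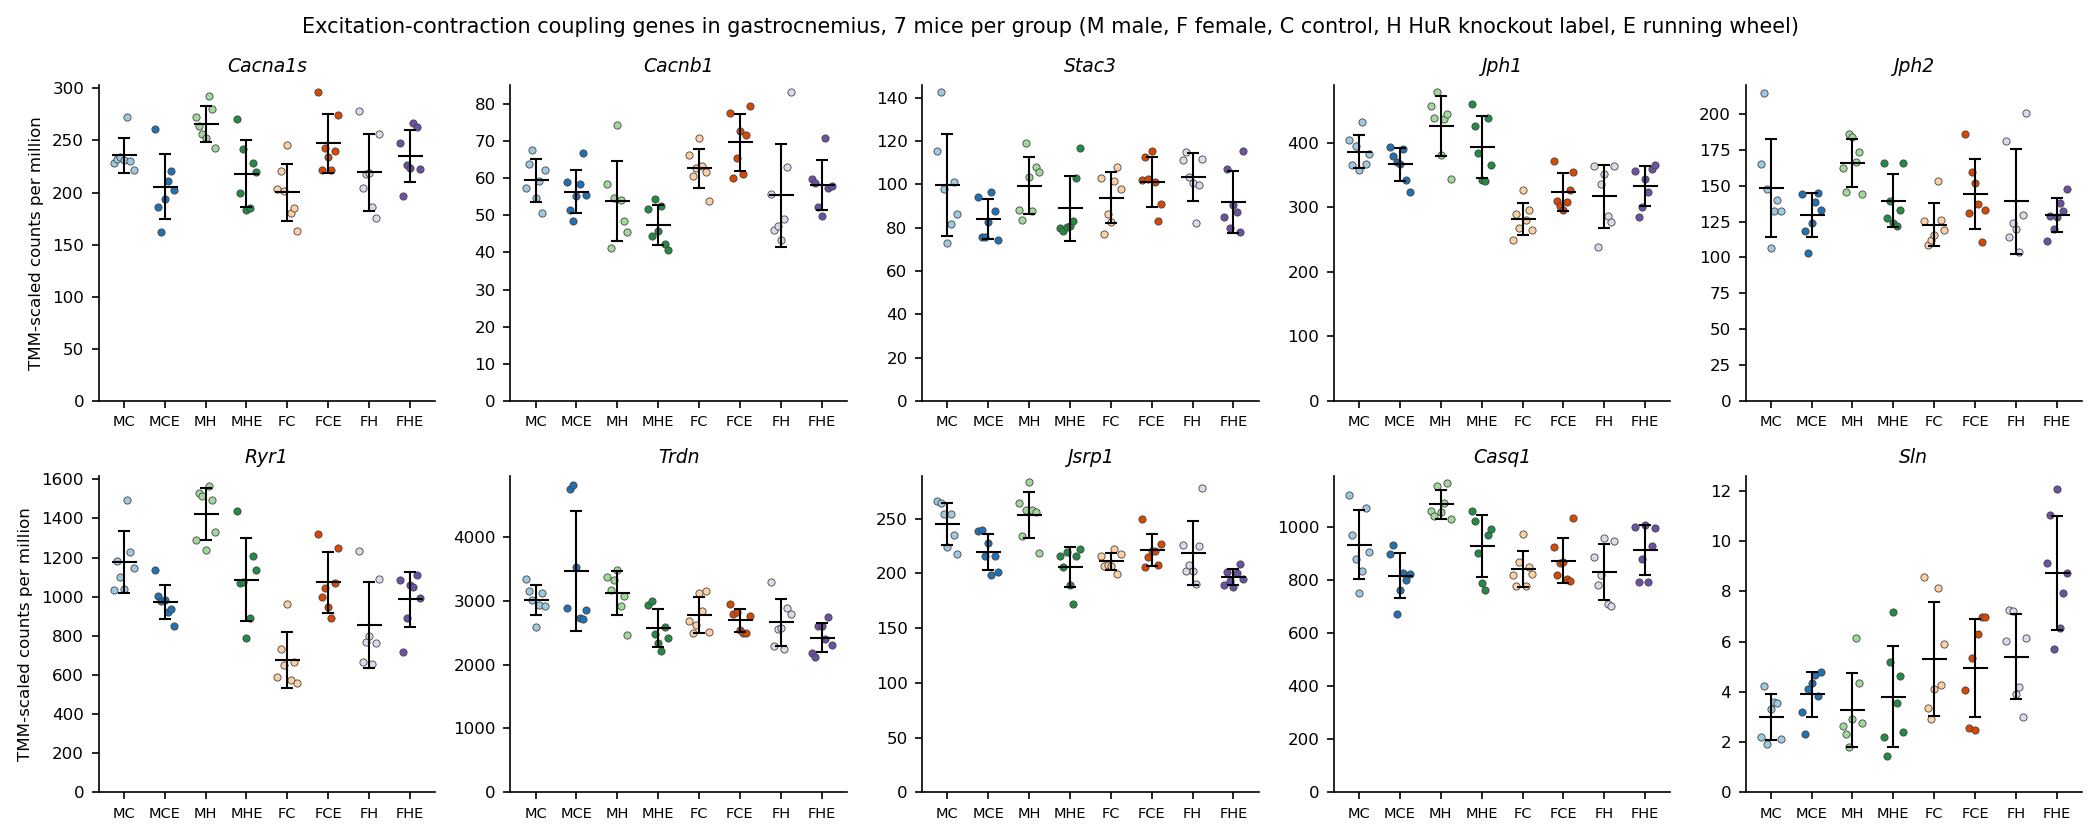
Levels of the 10 members in CPM (linear axes from 0), with 1 point per mouse, 7 mice in each of the 8 groups, and the mean ± SD in black. Ryr1 spans group means of 676.5 CPM in FC mice to 1423 CPM in MH mice, Sln is higher in females, and MCE mice hold 2 points for Trdn at 4746 and 4814 CPM.

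Several facts of the whole series bear on the members. Elavl1, the targeted gene, was not lower in the mice labelled HuR knockout: its log2 difference, labelled minus control, averaged 0.13 (standard error 0.06, adjusted p = 0.150), and in running males it was 0.44 (adjusted p = 0.0242). MCE mice 10 and 13 had the lowest Elavl1 of all 56 mice, 30.75 and 27.81 CPM, and these same mice had the highest Trdn, 4746 and 4814 CPM. A count over the whole gene does not show whether the floxed exon is gone, so these counts do not check the labels, and a direction given below by genotype is a direction between labels. Markers of skeletal muscle were abundant in every mouse, with a summed level of 64440 to 96370 CPM over 5 genes, but they moved with sex and wheel. Their score, a mean of log2 CPM, averaged 13.37 in FC and 13.38 in FH mice against 13.64 in MC and 13.61 in MH mice, and 13.54 in FCE and 13.56 in MCE mice. The score of 7 fast-fibre markers averaged 12.78 in females and 12.94 in males. All 7 slow-fibre markers were higher in labelled than control mice (median log2 difference 0.55) and all 7 were higher in females than males (median 0.66). Of 9 adipocyte markers 7 were higher in females. The summed level of the list ran from 3031 to 5745 CPM in females and from 1615 to 4393 CPM in males. Most of this sum came from Car3, at 1380 to 5110 CPM over all mice (median 3100). The next highest, Fabp4, had a median of 257 CPM, so the sum mainly follows Car3. Of 11 liver markers 4 were lower with running, and their summed level ran from 6.12 to 3353 CPM over all mice. The part of these cell types in the members' differences was tested only through the covariate fits given below.

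A further property differed on average in the locked females. For each mouse the deviation of log2 CPM from the mean of all mice was regressed on the log2 exonic length of 6915 well-expressed genes. The slope was -0.0537 ± 0.0328 (SD, n = 7) in FC mice and -0.0455 ± 0.0477 in FH mice, while the means of the other 6 groups lay between 0.00455 and 0.0239. The 527 genes with at least 12000 exonic bases had median deviations that averaged -0.124 in FC mice and -0.091 in FH mice, against 0.018 to 0.055 in the other groups. Scaled counts of long genes were thus on average lower in locked females, for a reason that was not tested. Single mice overlapped, with slopes from -0.109 to 0.0277 in FH mice and from -0.0264 to 0.0227 in MCE mice. Among the members Ryr1 has the greatest exonic length, 21838 bases.

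The wheel comparison, running against locked, asks whether weeks of voluntary running changed these genes. Averaged over the 4 combinations of sex and genotype, 28 running and 28 locked mice, 1 of the 10 members fell and none rose, where 5.96% of all genes tested were called (adjusted p of 0.05 or less) and 2.54% were called lower. The member that fell was Jsrp1, whose protein binds both the voltage sensor and calsequestrin. Its level ran from 190 to 283.4 CPM in locked mice (median 224.4) and from 172.4 to 249.9 CPM in running mice (median 212), with overlap. The log2 fold change was -0.13 (standard error 0.03, adjusted p = 0.00594), and the call was kept in all 56 fits that left out 1 mouse. The median of the log2 fold changes of the 10 members was -0.04 and that of all genes tested 0.01.

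For some members the averaged value joins opposite directions in the sexes. Ryr1, Cacna1s, Cacnb1, Jph1 and Casq1 were below 0 in both male groups and above 0 in both female groups. The others did not have this order: Jsrp1 was above 0 only in control females, and Sln was above 0 in all groups. In the MH against MHE comparison 9 of the 10 members had log2 fold changes below 0, and in MC against MCE 8 did. In FC against FCE mice 9 of the 10 were above 0, and in FH against FHE 6 were. The median over the members was -0.17 in control males, -0.24 in labelled males, 0.13 in control females and 0.09 in labelled females, whereas the median of all genes lay between 0.00 and 0.02 in these comparisons. Markers of other cells moved with sex and wheel too: the adipocyte score averaged 5.40 in FC and 4.49 in FCE mice, 5.41 in FH and 4.95 in FHE mice, 3.93 in MC and 3.80 in MCE mice, and 3.81 in MH and 4.14 in MHE mice. The leukocyte score averaged 2.21 in FC and 1.57 in FCE mice, and 1.52 in MC and 1.76 in MCE mice. The part of the leukocyte markers in the members' pattern was not tested. The test of the difference itself, female minus male response averaged over genotypes, called 5 of the 10 members higher and none lower, with 13.7% of all genes called and 6.79% called higher. These were Ryr1, Cacna1s, Casq1, Jph1 and Jsrp1.

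Ryr1 showed the largest of these differences. In locked males its level ran from 1035 to 1494 CPM in MC mice (median 1147) and from 1236 to 1565 CPM in MH mice (median 1496). With running it ran from 848 to 1137 CPM in MCE mice (median 979) and from 787 to 1440 CPM in MHE mice (median 1074). The running males thus overlapped the locked males within each genotype but had lower medians. In locked females Ryr1 ran from 557 to 963.8 CPM in FC mice (median 648.6) and from 658 to 1235 CPM in FH mice (median 768.8). Running females were at 890.6 to 1321 CPM in FCE mice (median 1043) and at 716.5 to 1109 CPM in FHE mice (median 1049). Ryr1 rose 1.6-fold with running in control females (log2 0.68, standard error 0.12, adjusted p = 0.000218), and without any 1 mouse the log2 value stayed between 0.62 and 0.76 and was called each time. The log2 fold change was 0.23 in labelled females (adjusted p = 0.307), -0.27 in control males (adjusted p = 0.218) and -0.41 in labelled males (adjusted p = 0.156), none of them past the threshold. The female minus male response was 0.79 on the log2 scale (standard error 0.12, 95% interval 0.55 to 1.03, adjusted p = 4.98e-06).

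Cacna1s, the voltage sensor, had the same order of responses at smaller size. It ran from 163.5 to 245.8 CPM in FC mice (median 201.1) and from 221.4 to 297 CPM in FCE mice (median 239.6). The groups overlapped between 221.4 and 245.8 CPM, and the log2 fold change was 0.31 (standard error 0.09, adjusted p = 0.0282). This call was lost without FC mouse 12, 20, 32 or 33 or FCE mouse 1 or 28, each left out alone (log2 0.26 to 0.31, adjusted p 0.0514 to 0.104), and with the liver and adipocyte covariates (0.20, adjusted p = 0.417). The values were 0.11 in labelled females, -0.21 in control males and -0.29 in labelled males, none past the threshold. The female minus male response was 0.46 (standard error 0.09, adjusted p = 0.000439).

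Casq1 gave a female minus male response of 0.31 (standard error 0.08, adjusted p = 0.00673) although none of its 4 wheel comparisons passed alone, with -0.19 in control males, -0.23 in labelled males, 0.05 in control females and 0.14 in labelled females. Its level in MH mice, 1031 to 1167 CPM (median 1058), was the highest of all groups, and in MHE mice it ran from 762.5 to 1061 CPM (median 968.6). Jph1 differed by 0.24 (standard error 0.08, adjusted p = 0.0391) and Jsrp1 by 0.18 (standard error 0.06, adjusted p = 0.0441). Each of these last calls was lost in 17 of the 56 fits without 1 mouse, with adjusted p up to 0.0657 for Jph1 and 0.0664 for Jsrp1. With the liver and adipocyte covariates, where 6.22% of all genes were called, Jph1 gave 0.15 (adjusted p = 0.348) and Jsrp1 0.09 (adjusted p = 0.496), and Jsrp1 was also lost with edgeR or with no filter on low counts (adjusted p = 0.0511 in both). Within one line Jsrp1 also fell with running in labelled males, from 218.9 to 283.4 CPM in MH mice (median 257.6) to 172.4 to 222.1 CPM in MHE mice (median 216), groups that overlap narrowly. The log2 fold change was -0.30 (standard error 0.06, adjusted p = 0.0482), in a comparison where 0.0419% of all genes were called. The call was lost in 24 of the 56 fits without 1 mouse (adjusted p up to 0.189) and in 2 of 11 other alternatives (adjusted p up to 0.168).

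The other members did not pass the test of the sex difference in response. The female minus male values were 0.29 for Jph2 (adjusted p = 0.093), 0.24 for Cacnb1 (adjusted p = 0.114), 0.16 for Stac3 (adjusted p = 0.369), 0.11 for Sln (adjusted p = 0.851) and -0.03 for Trdn (adjusted p = 0.87). In control females 2 of the 10 members were called higher and none lower, where 8.74% of all genes were called. In control males and in labelled females none was called, against 3.24% and 3.85% of genes.

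**Figure D2:**
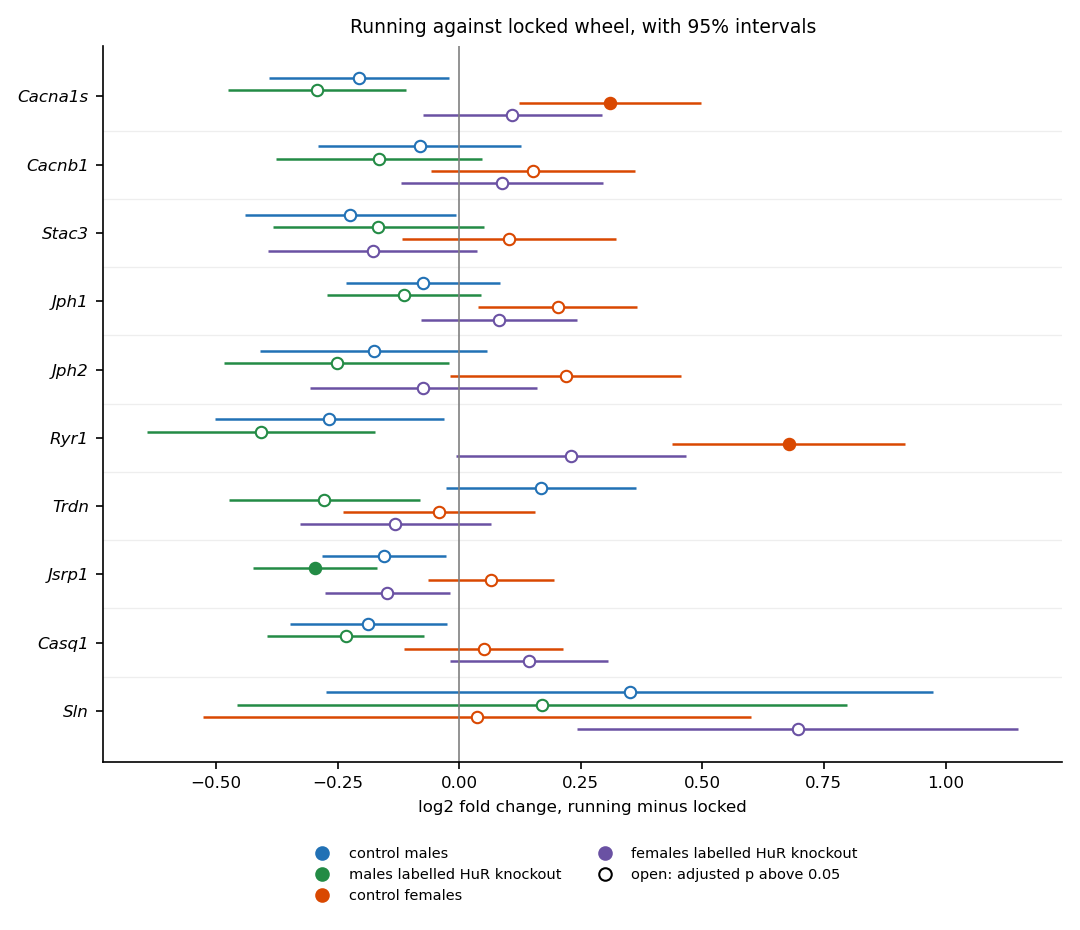
Log2 fold change of running against locked wheels for each member in the 4 combinations of sex and genotype, with 95% intervals from limma; filled points passed the threshold of 0.05 and open points did not. For Ryr1 and Cacna1s the points of both female groups lie right of 0 and those of both male groups left of it, at 0.68 and 0.23 against -0.27 and -0.41 for Ryr1.

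The sex difference in the wheel response moved with the transcript-length slope. With the slope as a covariate, a fit chosen after the data were seen, none of the 5 members remained called, and the share of all genes called fell from 13.7% to 1.87%. Ryr1 gave 0.38 (adjusted p = 0.0756), Casq1 0.27 (adjusted p = 0.145), Cacna1s 0.27 (adjusted p = 0.183), Jsrp1 0.18 (adjusted p = 0.250) and Jph1 0.01 (adjusted p = 0.961). The size was therefore nearly kept for Jsrp1 and Casq1, smaller for Ryr1 and Cacna1s and close to 0 for Jph1. In the same fit the wheel response of control females was 0.27 for Ryr1 (adjusted p = 0.389) and 0.13 for Cacna1s (adjusted p = 0.688). The slope differed between the groups compared, so that its part and that of the group cannot be told apart here. Around the group means, the level of Ryr1 correlated with the slope over 56 mice (Pearson r = 0.634, permutation p = 1e-05, the smallest that 100000 permutations can give; Spearman rho = 0.557, permutation p = 4e-05; adjusted over 10 members, p = 5e-05 and 0.0004). Without the 2 mice farthest from the median slope r was 0.548. Jph1 gave r = 0.528 and rho = 0.425 (permutation p = 1e-05 and 0.0011, adjusted p = 5e-05 and 0.0054), and r = 0.413 without 2 mice. Cacna1s gave r = 0.373 and rho = 0.298 (permutation p = 0.0048 and 0.025, adjusted p = 0.016 and 0.063), and r = 0.286 without 2 mice. Stac3 gave r = -0.271 and rho = -0.354 (permutation p = 0.044 and 0.0074, adjusted p = 0.11 and 0.025), and r = -0.314 without 2 mice. For Casq1 r was 0.074 (adjusted p = 0.74) and for Jsrp1 0.023 (adjusted p = 0.86).

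**Figure D3:**
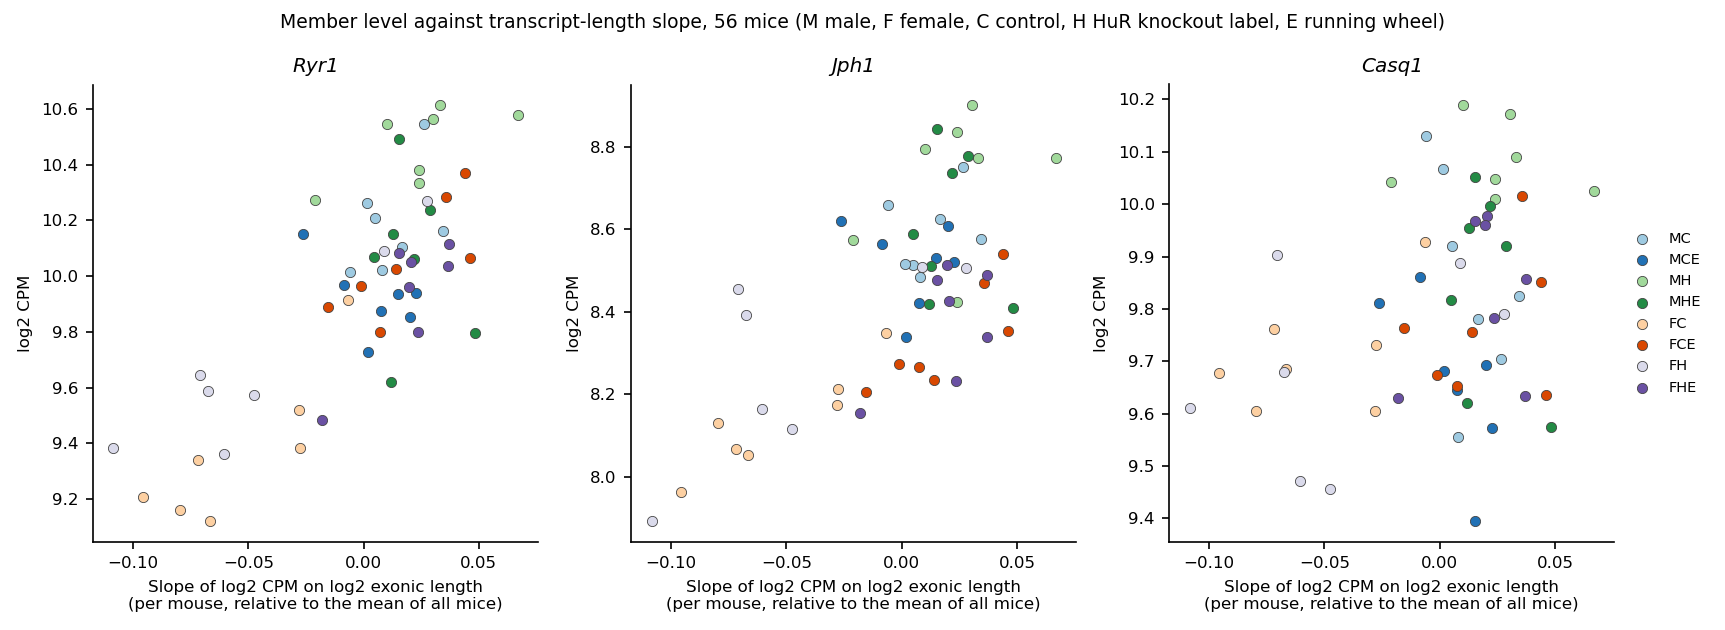
Level in log2 CPM of Ryr1, Jph1 and Casq1 against the transcript-length slope of each of the 56 mice, coloured by group. Most FC and FH mice lie at negative slopes with low Ryr1 and Jph1, and the group means of the slope are -0.0537 and -0.0455 in FC and FH mice.

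Sex was the factor with the most calls among the members, as it was among all genes. Averaged over the 4 combinations of genotype and wheel, 28 females and 28 males, 7 of the 10 members were called, 2 higher and 5 lower in females, where 33% of all genes were called, 15.8% higher and 17.1% lower. Sln and Cacnb1 were higher in females, and Ryr1, Jph1, Trdn, Jsrp1 and Casq1 were lower. The median log2 difference, female minus male, was -0.12 over the members and 0.00 over all genes.

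Among the members lower in females, the junction tether Jph1 differed most clearly relative to its spread. Females ran from 237.6 to 372 CPM (median 308.6) and males from 323.8 to 478 CPM (median 383.3). The ranges overlapped between 323.8 and 372 CPM, a band that held the medians of FH (335.8), FHE (343.9) and MCE mice (369.8). The log2 difference was -0.33 (standard error 0.04, adjusted p = 1.82e-09). Ryr1 differed by -0.39 (standard error 0.06, adjusted p = 2.84e-07), Trdn by -0.19 (standard error 0.05, adjusted p = 0.00176), Jsrp1 by -0.12 (standard error 0.03, adjusted p = 0.00237) and Casq1 by -0.11 (standard error 0.04, adjusted p = 0.0242). With the liver and adipocyte marker levels as covariates none of these 5 was called, and the share of all genes called fell from 33% to 7.08%. The log2 difference was -0.27 for Ryr1 (adjusted p = 0.0870), -0.20 for Jph1 (adjusted p = 0.0533), -0.15 for Trdn (adjusted p = 0.312), -0.01 for Jsrp1 (adjusted p = 0.951) and -0.11 for Casq1 (adjusted p = 0.377). The adipocyte level itself differed between the sexes, which limits what that fit can separate. Casq1 and Trdn each lost the call in 3 of the 10 alternatives, Jsrp1 in 2, and Ryr1 and Jph1 in 1. With the transcript-length slope 3 of these 5 stayed called, where 25.5% of all genes were. With the slow-fibre score 3 did, where 20.6% were, and with upper-quartile factors 4, where 33% were.

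In locked mice the sexes were farthest apart. In FC against MC mice 3 members were called, all lower in females, where 21.5% of genes were called and 11.2% lower. Ryr1 did not overlap between the 7 FC mice (557 to 963.8 CPM) and the 7 MC mice (1035 to 1494 CPM), and neither did Jph1, at 249.4 to 326.1 CPM in FC mice and 358.1 to 431.2 CPM in MC mice; 6.98% of all genes had no overlap in this comparison. The log2 difference was -0.81 for Ryr1 (0.571-fold, standard error 0.12, adjusted p = 7.43e-07), -0.45 for Jph1 (standard error 0.08, adjusted p = 2.39e-05) and -0.21 for Jsrp1 (standard error 0.06, adjusted p = 0.0129). In FH against MH mice 6 members were called, 5 lower and 1 higher in females, where 19.3% of genes were called. Ryr1 (-0.77, adjusted p = 2.18e-06) and Casq1 (-0.40, adjusted p = 0.000242) had no overlap, Casq1 at 702.6 to 957.7 CPM in FH mice and 1031 to 1167 CPM in MH mice, where 3.21% of all genes had none. Jph1 was at -0.43 (adjusted p = 5.4e-05), Jsrp1 at -0.21 (adjusted p = 0.0126) and Cacna1s at -0.29 (adjusted p = 0.02), the last lost without FH mouse 30 or 31 (adjusted p = 0.0552 and 0.0687), with only the groups compared (adjusted p = 0.0514), with the slope (-0.12, adjusted p = 0.550) and with the liver and adipocyte covariates (-0.10, adjusted p = 0.784). Ryr1 stayed called in both locked comparisons under every alternative fit, the length slope included, at -0.93 to -0.44 in controls and -0.88 to -0.38 in labelled mice (adjusted p up to 0.0146 and 0.0261). With the slope as a covariate Jph1 was lost in labelled mice (adjusted p = 0.0817) and Jsrp1 in both (adjusted p = 0.0696 and 0.0817). Jsrp1 was also lost in both with the slow-fibre score (adjusted p = 0.0975 and 0.0682) and in labelled mice with only the groups compared (adjusted p = 0.107). With the liver and adipocyte covariates Jph1 gave -0.29 in controls and -0.26 in labelled mice (adjusted p = 0.111 and 0.236), and Jsrp1 -0.04 and -0.07 (adjusted p = 0.869 and 0.762).

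In running mice fewer members differed between the sexes. In FCE against MCE mice 1 was called, where 7.65% of genes were: Trdn was lower in females by 0.33 on the log2 scale (value -0.33, standard error 0.10, adjusted p = 0.0251). MCE mice 10 and 13 had Trdn at 4746 and 4814 CPM, far above the median of 2887 CPM of their group. The call was lost without either (-0.24 and -0.23, adjusted p = 0.132 and 0.134) and also without FCE mouse 25, 26 or 27 (adjusted p 0.0508 to 0.0647). It was lost in 3 of 11 other alternatives as well (adjusted p up to 0.202). In FHE against MHE mice only Sln was called, where 5.57% of genes were. Ryr1 did not pass in either comparison of running mice, with log2 differences of 0.14 in controls (adjusted p = 0.559) and -0.13 in labelled mice (adjusted p = 0.614).

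Sln, the SERCA-regulating peptide that slows calcium reuptake, was low throughout, and higher in females. Females ran from 2.481 to 12.05 CPM (median 6.09) and males from 1.435 to 7.189 CPM (median 3.435), with wide overlap. The log2 difference was 0.84 (1.79-fold, standard error 0.14, adjusted p = 3.29e-06). By group the medians were 3.329 CPM in MC, 4.107 in MCE, 2.759 in MH and 3.541 in MHE mice. In females they were 4.265 CPM in FC, 5.352 in FCE, 6.021 in FH and 8.732 in FHE mice. The females labelled HuR knockout with running wheels held the highest group, at 5.694 to 12.05 CPM. They lay above all MC mice (1.907 to 4.22 CPM) and all MCE mice (2.325 to 4.775 CPM). The share of all genes without overlap was not taken for these pairs. For FHE against MHE mice, which ran from 1.435 to 7.189 CPM, the log2 difference was 1.34 (2.523-fold, standard error 0.26, adjusted p = 0.000391). In locked labelled mice it was 0.81 (standard error 0.29, adjusted p = 0.0382), lost in 9 of the 56 fits without 1 mouse and under 6 of 11 other alternatives, and in control mice it was 0.76 locked (adjusted p = 0.0733) and 0.45 running (adjusted p = 0.364). Atrial muscle also makes Sln; of the atrial markers looked for only Myl4 was listed, at 1.59 to 19.1 CPM, and it too was higher in females (log2 difference 0.43, adjusted p = 0.00852). Its part in the Sln difference was not tested.

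Cacnb1 was the other member higher in females. Females ran from 43.37 to 83.11 CPM (median 60.89) and males from 40.76 to 74.36 CPM (median 54.53). The log2 difference was 0.18 (standard error 0.05, adjusted p = 0.00519), called under all 10 alternatives and in all 56 fits without 1 mouse. No comparison within a genotype and wheel passed alone, with log2 values from 0.04 to 0.31. The nearest were running controls (adjusted p = 0.0508) and running labelled mice (adjusted p = 0.0881).

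**Figure D4:**
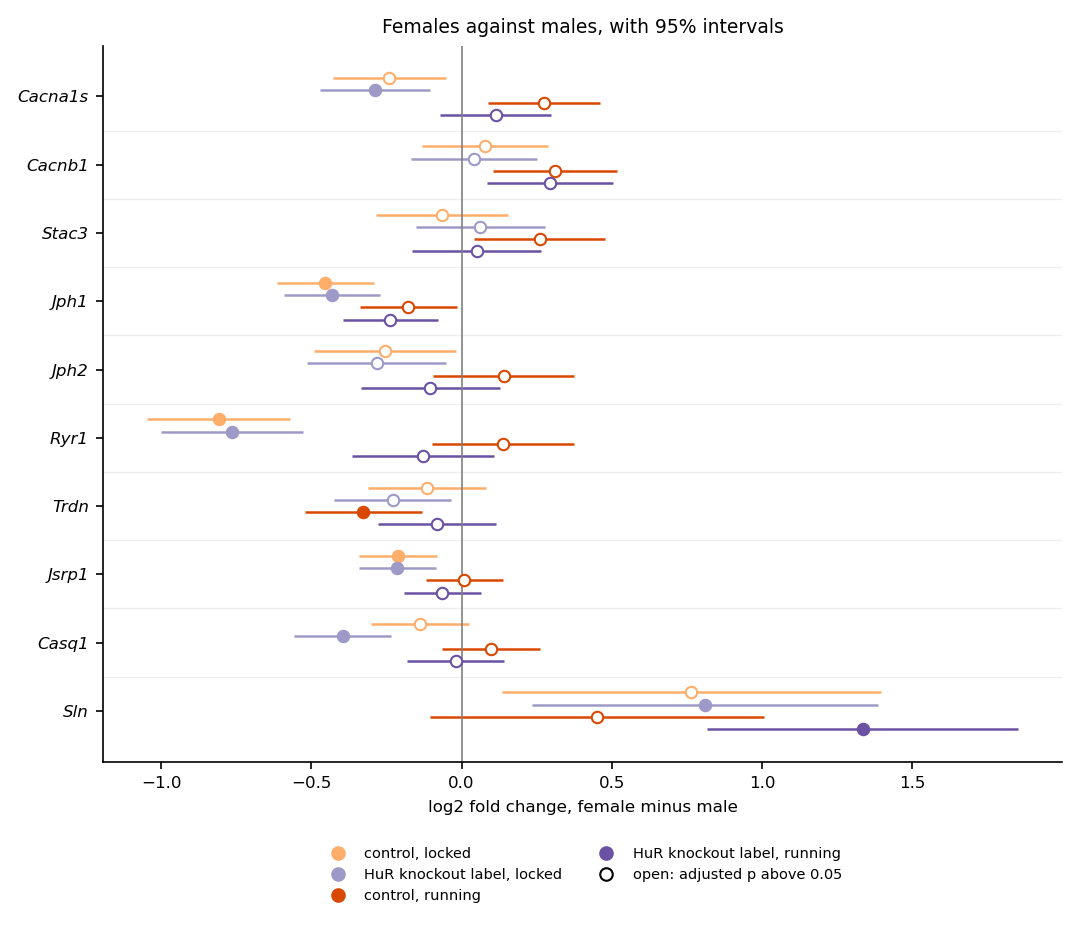
Log2 difference, female minus male, of each member in the 4 combinations of genotype and wheel, with 95% intervals from limma; filled points passed the threshold of 0.05 and open points did not. Ryr1 lies at -0.81 and -0.77 in the locked groups and at 0.14 and -0.13 in the running groups, while Sln lies right of 0 in all 4.

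The genotype comparison, mice labelled HuR knockout against controls, asks whether these mRNAs depend on HuR in muscle. Averaged over the 4 combinations of sex and wheel 2 of the 10 members were called, both lower in labelled mice, where 11.8% of all genes were called and 7.41% lower. The median log2 difference was 0.08 over the members and 0.01 over all genes. Cacnb1, the β1 subunit, ran from 48.55 to 79.53 CPM in controls (median 61.4) and from 40.76 to 83.11 CPM in labelled mice (median 52.33). The log2 difference was -0.22 (standard error 0.05, adjusted p = 0.00227). Its value was below 0 in each of the 4 comparisons, at -0.17 and -0.25 in locked and running males and -0.21 and -0.27 in locked and running females, none of which passed alone. Every fit that left out 1 mouse called it.

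Trdn ran from 2487 to 4814 CPM in controls (median 2845) and from 2125 to 3480 CPM in labelled mice (median 2594), a log2 difference of -0.14 (standard error 0.05, adjusted p = 0.0443). This call was lost in 30 of the 56 fits without 1 mouse (adjusted p up to 0.076). Within sex and wheel, no member was called in locked males, locked females or running females, where 1.15%, 0.384% and 0% of genes were called. In running males Trdn differed by -0.40 (standard error 0.10, adjusted p = 0.0162), where 2.63% of genes were called. This call was lost without MCE mouse 10 (-0.32, adjusted p = 0.0912) or MCE mouse 13 (-0.30, adjusted p = 0.0737). It was also lost in 3 of 11 other alternatives (adjusted p up to 0.184). The slow-fibre markers moved with the genotype label, and with their level as a covariate, a fit chosen after the data were seen, Cacnb1 gave -0.14 (adjusted p = 0.423) and Trdn -0.08 (adjusted p = 0.678). That fit called 0% of all genes between genotypes, so the loss of these calls is not particular to the members. Trdn was also lost with upper-quartile factors (adjusted p = 0.076) and with the liver and adipocyte covariates (adjusted p = 0.0884). Around the group means no member correlated with the slow-fibre score at an adjusted p of 0.05 over 10 members, and Cacnb1 was nearest (r = -0.307, permutation p = 0.021, adjusted p = 0.18; rho = -0.254, permutation p = 0.06, adjusted p = 0.21; r = -0.318 without the 2 farthest mice).

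The other members fell short of the threshold between genotypes. Ryr1 gave a log2 difference of 0.15 (adjusted p = 0.0775), Casq1 0.11 (adjusted p = 0.0595), Jph1 0.11 (adjusted p = 0.0674), Sln 0.19 (adjusted p = 0.451), Cacna1s 0.08 (adjusted p = 0.297), Jph2 0.08 (adjusted p = 0.449), Stac3 0.02 (adjusted p = 0.851) and Jsrp1 -0.04 (adjusted p = 0.448). Under upper-quartile scaling or sample quality weights Ryr1, Jph1 and Casq1 were called higher (adjusted p from 0.0236 to 0.0474). In those fits 11.9% and 15.9% of all genes were called between genotypes. Over all 10 alternatives Jph1 was called higher in 4, Ryr1 in 3 and Casq1 in 2. Without 1 mouse Casq1 was called higher in 13 of the 56 fits, Jph1 in 9 and Ryr1 in 5. No member passed the tests of wheel by genotype, genotype by sex or all 3 factors together, where 0.00698%, 0.00698% and 0% of all genes were called. In these tests the log2 values of the members ran from -0.29 to 0.24, from -0.19 to 0.47 and from -0.34 to 0.84.

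Stac3 and Jph2 were not called in any of the 19 comparisons. Stac3, whose loss in mice abolishes coupling, ran from 72.75 to 142.7 CPM over all mice, with group medians from 80.97 CPM in MHE mice to 103.6 CPM in MH mice. Its averaged wheel value was -0.12 (95% interval -0.22 to -0.01, adjusted p = 0.210) and its averaged sex value 0.08 (adjusted p = 0.297). Jph2, the junctophilin that is also made in heart, ran from 103.2 to 214.9 CPM, and its averaged sex value was -0.13 (95% interval -0.24 to -0.01, adjusted p = 0.0945), called without MC mouse 19, FH mouse 13 or FH mouse 34. A value that misses the threshold leaves room for differences as large as these intervals.

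Ordered by group mean, Ryr1 ran from FC through FH, MCE, FHE, FCE, MHE and MC to MH mice, a 2.103-fold range. No neighbouring pair in this order was without overlap, nor was any neighbouring pair of the other members. Of the 28 pairs of groups, 5 did not overlap for Ryr1, 4 for Casq1, 3 for Jph1, 2 each for Jsrp1 and Sln, 1 for Cacnb1 and 0 for Cacna1s, Stac3, Jph2 and Trdn. The share of all genes without overlap was taken only for pairs differing in sex, genotype or wheel alone. It ran from 0.237% (MH and MHE) to 6.98% (FC and MC). Whether the members' counts are unusual among genes was not tested. The lowest group was FC for Ryr1, Cacna1s, Jph1 and Jph2, and the highest was MH for these 4, Casq1 and Jsrp1.

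The members also varied together from mouse to mouse. As a description over 56 mice, which share library depth and length slope, deviations of log2 CPM from the group means correlated with r = 0.801 for Ryr1 and Cacna1s, 0.763 for Ryr1 and Jph1 and 0.672 for Jph2 and Jsrp1. Sln stood apart, with r from -0.265 (Trdn) to 0.067 (Stac3). Over all genes tested, those most like Ryr1 by Pearson r of log2 CPM included Ttn (0.922) and Neb (0.917), which encode giant sarcomere proteins and are long mRNAs. Those most like Cacna1s were Atp2a1 (0.849), the fast-fibre SERCA pump, Nomo1 (0.771) and Prkar2a (0.768). For Jph1 they were Cap2 (0.911), Map3k20 (0.872) and Neb (0.869), and for Casq1 Adssl1 (0.766), Gpd1 (0.747) and Map3k20 (0.745). For Jsrp1 they were Tnnt3, the fast troponin T (0.856), the tropomyosin gene Tpm1 (0.839) and Aldoa (0.791), and for Jph2 Atp2a1 (0.748), Myom2 (0.742) and Cdk16 (0.727). For Trdn they were Zfp91 (0.8), Dek (0.773) and Dnajc21 (0.768), for Cacnb1 Narf (0.803), Mlec (0.754) and Slc30a9 (0.736), and for Stac3 Fxyd1 (0.725), Lamtor2 (0.692) and Copg2 (0.658). Sln had weaker matches, Klhl38 (0.61), Retnla (0.603) and Stat5a (0.599).

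Other genes of calcium handling were followed as a list of 57, of which 56 were in the table and 55 were tested. With running, averaged, 2 were called higher and 3 lower, with a median log2 fold change of -0.01, where 5.96% of all genes were called. Those higher were Casq2, the cardiac and slow-fibre calsequestrin (0.34, adjusted p = 0.00152), and the sodium-calcium exchanger Slc8a3 (0.21, adjusted p = 0.0362). Those lower were the calcium buffer Pvalb (-0.21, adjusted p = 0.000377), the calmodulin gene Calm2 (-0.16, adjusted p = 0.011) and Fkbp1a, which encodes a RyR1-bound protein (-0.11, adjusted p = 0.0265). Between genotypes 5 were called higher and 4 lower, where 11.8% of all genes were called. Among the largest, the slow-fibre pump Atp2a2 (0.30, adjusted p = 0.00245), the muscle sodium channel Scn4a (0.21, adjusted p = 0.0157) and the CaV1.1 γ subunit Cacng1 (0.18, adjusted p = 0.0404) were higher in labelled mice. The reticulum cation channel Tmem38b (-0.25, adjusted p = 0.00245), Slc8a3 (-0.23, adjusted p = 0.0111) and the IP3 receptor Itpr1 (-0.23, adjusted p = 0.035) were lower.

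Between the sexes 6 of the 55 were called higher in females and 25 lower, with a median of -0.12, where 15.8% of all genes were called higher and 17.1% lower. Of the voltage sensor and surface membrane genes 8 of 11 were lower, including the membrane repair gene Dysf (-0.51, adjusted p = 1.03e-11). Of the calcium sensors 5 of 6 were lower and 1 was higher, and Rcan1, an inhibitor of calcineurin, gave -0.47 (adjusted p = 0.000552). Casq2 was higher in females (0.62, adjusted p = 3.07e-10), as was Cacnb4 (0.80, adjusted p = 0.0124), while Ryr3 (-1.04, adjusted p = 0.00478) and Itpr1 (-0.57, adjusted p = 1.54e-08) were lower. Ryr3 and Cacnb4, relatives of the members used mainly in other tissues, were low, with medians of 0.73 and 2.60 CPM over all mice. In the test of the sex difference in wheel response 16 of the 55 were called higher and 2 lower, where 6.79% of all genes were called higher and 6.9% lower, with a median of 0.25 against 0.24 for the members and 0.00 for all genes. By list, 5 of 6 calcium sensors, 3 of 6 store refilling and extrusion genes and 4 of 11 voltage sensor and surface membrane genes were called higher. Of the release channel partners and reticulum lumen genes 3 of 14 were called higher and 1 lower. Of the reuptake and buffering genes 1 of 5 was called higher and 1 lower. None was called for mitochondrial uptake or for the relatives used mainly in other tissues.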

How the data were processed

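RNA of whole gastrocnemius was sequenced in 56 mice, 7 in each of 8 groups taken from the sample labels. The authors deposited raw counts of reads per gene; the submitters' notes name GRCm38, R 4.0.3 and edgeR 3.38.4, and the aligner and the strand setting are not given in the sources used here. The labels name a 3′ end kit and the study's methods a total RNA kit. Counts were scaled by TMM (edgeR 4.0.16), filtered with filterByExpr and fitted with voom and limma 3.58.1 (R 4.3.3) as a mean per group over all 56 mice. Each of 19 contrasts was tested over 14321 genes with Benjamini-Hochberg adjustment, and an adjusted p of 0.05 or less is called. All adjusted p-values are limma's unless a permutation is named. Log2 CPM used a prior count of 2, and marker scores a pseudocount of 0.5 CPM. Correlations across mice used deviations from group means and 100000 two-sided permutations (scipy 1.17.1). The code was tested on simulated data. Totals per mouse ran from 6639782 to 21633091 counts, so that precision is lowest for Sln (17 to 164 counts). Nothing beyond the mouse numbers in the labels says that mice of a group were handled separately.

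The 10 members and all gene lists were chosen with earlier results of these data known. Every member is reported; the 3 genes most alike per member and up to 6 pathway genes per averaged comparison, by size of change among those called, are named, except 1 that is not reported here. Alternatives were 10 planned fits, among them DESeq2 1.42.0, leaving out each mouse, and 2 covariates added after the data were seen. Mouse numbers are shared only between the sexes. In 12 same-numbered pairs the correlations of deviations ran from -0.202 to 0.183, so the numbers were not taken to pair mice.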

Additional observations from a re-analysis of the deposited data

Results flagged for a closer look

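The wheel response differed between females and males, by a test of the difference itself, for 5 members: by 0.79 for Ryr1, 0.46 for Cacna1s, 0.31 for Casq1, 0.24 for Jph1 and 0.18 for Jsrp1 on the log2 scale (female minus male). With the transcript-length slope as a covariate none passed, at 0.38, 0.27, 0.27, 0.01 and 0.18 in the same order, and the share of all genes called fell from 13.7% to 1.87%.

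In 4 of the 80 sets of 7 mice, 1 mouse lay far from the others, and chance alone gives about 1 in 20. MC mouse 20 had Ryr1 at 1494 CPM, where the other MC mice ran from 1035 to 1229 CPM, and Cacna1s at 272.8 CPM, where they ran from 221.4 to 233.9 CPM. FC mouse 20 had Jph2 at 153.1 CPM against 108.5 to 125.9 CPM. FH mouse 34 had Jsrp1 at 277.9 CPM against 190 to 225.9 CPM.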

How the results depend on the processing

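Of the counts of called members, the averaged wheel count of 1 was the same under every alternative and without each mouse (1 to 1). The wheel count within sex and genotype was 3 (1 to 4 without each mouse). It was 4 with DESeq2 or only the groups compared, 2 with liver and adipocyte markers and 1 with the transcript-length slope. The averaged genotype count was 2 (1 to 4 without each mouse). It was 3 with DESeq2 or liver and adipocyte markers, 4 with upper-quartile factors, 5 with sample quality weights and 0 with the slow-fibre score. The share of all genes called in these fits was 12.5%, 9.74%, 11.9%, 15.9% and 0%, against 11.8% before. Within sex and wheel the genotype count was 1 (0 to 1 without each mouse). It was 2 with quality weights and 0 with only the groups compared, with liver and adipocyte markers or with the slow-fibre score. The averaged sex count was 7 (7 to 8 without each mouse). It was 8 with quality weights, 6 with upper-quartile factors, 5 with the slope or the slow-fibre score and 2 with liver and adipocyte markers. The share of all genes called in these fits was 35.5%, 33%, 25.5%, 20.6% and 7.08%, against 33% before. Within genotype and wheel the sex count was 11 (10 to 15 without each mouse). It was 17 with quality weights, 14 with DESeq2 and 13 with DESeq2 size factors, upper-quartile factors or only the groups compared. With the slow-fibre score it was 10, with the slope 8 and with liver and adipocyte markers 6. The interaction count was 5 (3 to 7 without each mouse). It was 7 with quality weights, 4 with edgeR or no filter on low counts, 3 with liver and adipocyte markers and 0 with the slope. In the wheel by sex test these fits called 16.8%, 13.3%, 12.3%, 6.22% and 1.87% of all genes, against 13.7% before. The replicate block by mouse number gave 12 in place of 11 within genotype and wheel, and changed no other count.

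Direction turned for values near 0 that were not called. The averaged wheel value of Ryr1 was -0.12 with the slope, that of Jph1 -0.068 with the slope and -0.012 with liver and adipocyte markers, and that of Cacnb1 0.011 with quality weights, 0.015 with the slow-fibre score and -0.023 to 0.026 without each mouse. The averaged sex value of Cacna1s was 0.10 with liver and adipocyte markers and 0.040 with the slope. The wheel by sex value of Trdn was -0.059 to 0.017 without each mouse. The cause was not tested. The kit is not settled by the sources, and counts per gene cannot separate isoforms or the floxed Elavl1 exon.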
